A study of Mus musculus with 19 samples.

Results

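Long intergenic noncoding RNAs (lincRNAs) with enough reads to be measured were followed in the 2 populations of retinal ganglion cells (RGCs) of the mouse embryo. A lincRNA entered the set when the GENCODE M21 annotation of the GRCm38 genome gives its Ensembl gene the biotype lincRNA and its read counts sum to at least 600 over the 6 RNA-seq libraries. Of 3401 lincRNAs in the count tables, 967 had at least 1 count and 102 reached the sum, and 99 remained after H19, Meg3, Mirg and Rian were left out by name. The first 3 of these had reached it. The members were thus chosen by their summed counts over both populations and not by the difference between these, but 23 of the 99 would miss the sum at the level of their lower population and entered through the population in which they are high. The 99 lie on 21 chromosomes, 6 of them on the X and 1 on the Y; 26 have exons that merge into a single block over all annotated transcripts, and the median exonic length is 3510 bases.

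The libraries were made from GFP-positive cells sorted from retinas at E16.5, with 3 libraries of ipsilaterally projecting RGCs (iRGCs) and 3 of contralaterally projecting RGCs (cRGCs). Every embryo carried a reporter at Rosa26, CAG-[Stop]-Sun1-GFP, which puts GFP on the nuclear envelope of a cell and its descendants once Cre has acted. In iRGC embryos the Cre was Slc6a4-Cre (Sert), which follows the serotonin transporter gene, and in cRGC embryos it was Pou4f2-Cre (Brn3b), which marks most RGCs, so that the ventrotemporal retina, where iRGCs arise, was cut away before sorting. The labels give the strain as C57/DBA F1, the genotype as WT and the sex as pooled male and female for all 6 libraries. How many embryos went into a library, and whether libraries came from separate pools, was not given in the sources used here, so p-values measure only the spread between these libraries. The reads assigned to genes numbered from 28193178 to 33638083 per library.

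Several marker genes bear on what the populations hold. Zic2, the transcription factor of iRGCs, measured 133, 173 and 157 CPM (counts per 1000000, with TMM scaling) in iRGC libraries 1, 2 and 3 and 57.0, 60.2 and 65.7 CPM in cRGC libraries 1, 2 and 3. Slc6a4 itself measured 2.06, 33.4 and 116 CPM in iRGCs and 48.1, 35.4 and 30.5 CPM in cRGCs. Zic2 thus separated the populations, whereas Slc6a4 did not, and iRGC library 1 lay below every cRGC library for the gene whose Cre driver marked it. Pou4f2 measured 74.7, 133 and 98.3 CPM in iRGCs and 191, 196 and 293 CPM in cRGCs, higher in every cRGC library. By the study's methods, the Cre of the cRGC embryos was targeted to this gene's own locus (Brn3b). The part of that allele in these levels was not tested.

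Markers of other cells differed between the populations as well. All 16 genes of a retinal progenitor list were higher in iRGCs, with a summed level of 10368, 9053 and 7959.6 CPM against 1025, 2435 and 1612 CPM in cRGCs; Ccnd1 was the most abundant and none was at 0 in any library. Of 12 RGC markers, 11 were higher in cRGCs, with a summed level of 2356, 3297 and 5071 CPM in iRGCs and 13267, 12007 and 14577 CPM in cRGCs, led by Nefm. The 8 neurogenic precursor markers (summed level 1439, 1663 and 1376 CPM in iRGCs and 307, 524 and 465 CPM in cRGCs), 6 of 6 tested photoreceptor precursor markers and 7 of 8 amacrine markers were higher in iRGCs too. Of 5 horizontal cell markers, 1 was higher in iRGCs (Prox1) and 4 did not pass, with a median log2 fold change of -0.56 and a summed level of 265, 284 and 234 CPM in iRGCs and 240.2, 250.4 and 393 CPM in cRGCs, led by Onecut2. Of 12 endothelial markers, 8 were tested and all 8 were higher in iRGCs, with 481, 774 and 437 CPM against 89.2, 109 and 72.0 CPM, Kdr being the most abundant. In the cRGC libraries 5, 3 and 6 endothelial markers had no read, and iRGC library 2 held the highest endothelial and erythroid sums. Of 9 microglial markers, 7 were tested, of which 4 were higher in iRGCs (Csf1r, the most abundant, and the complement genes C1qa, C1qb and C1qc) and 3 did not pass, with 20.6, 27.0 and 18.2 CPM against 1.19, 4.42 and 2.13 CPM in cRGCs, where 6, 2 and 1 had no read. Of 5 fibroblast markers, 2 were tested and Col1a2 was higher in iRGCs, and neither of the 2 tested markers of the pigment epithelium, out of 6, passed. In such bulk samples, fewer cells of a type and less RNA per cell cannot be told apart. The part that these cells play in the lincRNA differences was not tested.

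LincRNAs are transcripts annotated outside protein-coding genes that are capped and mostly spliced like mRNAs but are not known to be translated. Some act in the nucleus as RNAs, such as Xist, which coats the inactive X chromosome, or Malat1, which gathers at speckles of splicing factors. Others matter mainly for the small RNAs cut from them, or are made from a start region shared with a neighbouring gene. In the developing retina, levels of many of them change as progenitors leave the cell cycle and become neurons.

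The 99 lincRNAs were tested together with all 15941 genes that passed edgeR's filterByExpr, by edgeR's quasi-likelihood test of iRGCs against cRGCs with Benjamini-Hochberg adjustment over all of them; a positive log2 fold change is a higher level in iRGCs. All 99 passed the filter. At an adjusted p under 0.1, 15 lincRNAs (15.2%) were higher in iRGCs and 29 (29.3%) in cRGCs, beside 23.3% and 23.1% of all tested genes. In either direction these were 44 lincRNAs, or 44.4%, beside 46.4% of all tested genes. Among the 12113 tested genes with at least 600 counts the shares were 27.9% and 29.0%, or 56.9% in either direction. These genes share only the floor of 600 counts with the lincRNAs, whose median was 1449 counts. Of the 44 lincRNAs past the threshold, 16 reached 600 counts only through their higher population, which for most of them was cRGCs. The shares of lincRNAs past the threshold are thus partly set by the choice of members. Among the 76 lincRNAs that would reach the sum at the level of both populations, 28 passed in either direction. This cut removes lincRNAs by their difference between the populations, which lowers the count of those that pass. No like cut was made over all tested genes, so the 28 are not set against their shares. DEGs, which also change by over 1 on the log2 scale, made up 10 lincRNAs higher in iRGCs and 22 higher in cRGCs, beside 12.1% and 11.0% of all tested genes and 13.3% and 13.1% of those with at least 600 counts. The lincRNAs had a median log2 fold change of -0.025, and all tested genes one of -0.0031.

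The split of the calls moved with the settings. With library totals and no scaling factors, 23 lincRNAs were higher in iRGCs and 19 in cRGCs, since this moves the median of all genes up by 0.21, and the share of iRGCs among the calls went from 34.1% to 54.8% for the lincRNAs and from 50.1% to 64.2% for all genes. Without iRGC library 3 it was 45.2% for the lincRNAs and 46.9% for all genes. The populations did not overlap in 49 lincRNAs (49.5%), beside 55.3% of all tested genes and 63.0% of those with at least 600 counts. Of the 23 lincRNAs that entered through their higher population, 16 were DEGs, so the counts of DEGs are partly set by the choice of members. These were AU020206, Gm14230, 2900052N01Rik, Mir670hg and Epb41l4aos, higher in iRGCs, and Gm32736, Gm27032, Gm14827, Gm38101, 2410018L13Rik, Gm2694, Gm17484, 2210008F06Rik, Gm30382, Gm2762 and C230004F18Rik, higher in cRGCs, and the test of each is not independent of how it was chosen. Without iRGC library 1, 10 DEGs were higher in iRGCs and 18 in cRGCs, and without cRGC library 3 there were 11 and 14.

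**Figure D1:**
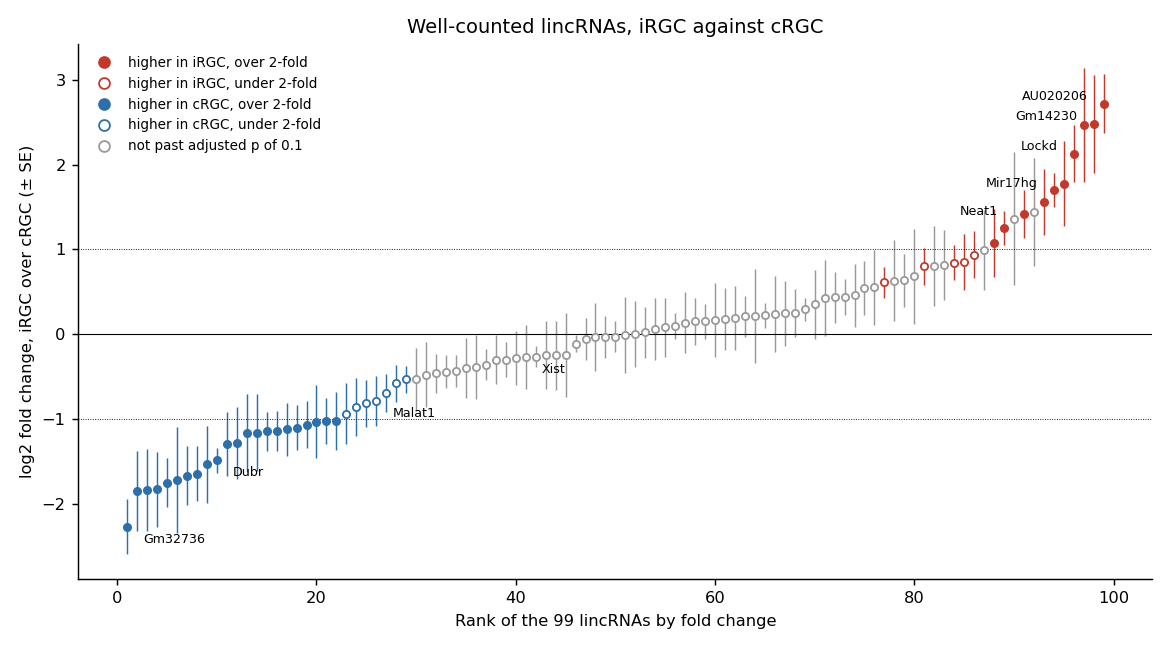
Log2 fold change of iRGCs over cRGCs, with its SE, for the 99 lincRNAs in order of fold change; filled points are DEGs and open coloured points passed the adjusted p alone. The values run from -2.26 (Gm32736) to 2.72 (AU020206), with 10 DEGs on the iRGC side and 22 on the cRGC side, and grey points between them and among them did not pass.

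A first group of lincRNAs carries microRNA (miRNA) genes. MiRNAs are short RNAs cut from hairpins of longer transcripts, and they find target mRNAs mainly through the seed, bases 2 to 8 from the 5′ end. Of the 99 lincRNAs, 14 overlap 26 annotated miRNA genes on the same strand, 2 of which they hold only in part; 4 of these lincRNAs were higher in iRGCs, 5 in cRGCs and 5 did not pass, beside the 23.3% and 23.1% of all tested genes given above. Of the 9 past the threshold, Mir670hg, Gm27032 and C230004F18Rik reached 600 counts only through their higher population; among the 11 hosts without them, 3 were higher in iRGCs and 3 in cRGCs. The mature sequences printed here belong to the hosts that were higher in iRGCs, shown because the shared seeds tell which miRNAs form families; they are from RefSeq on GRCm38.p6, which gave a sequence for 20 of the 26 miRNA genes, and are written 5′ to 3′ with the seed in capitals. The first lines are the main arms of the miR-17-92 cluster in Mir17hg, from chr14:115043684 to 115044496 on the + strand.
miR-17-5p: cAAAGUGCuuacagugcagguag
miR-20a-5p: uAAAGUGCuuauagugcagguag
miR-18a-5p: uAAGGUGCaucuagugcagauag
miR-19a-3p: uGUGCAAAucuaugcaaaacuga
miR-19b-3p: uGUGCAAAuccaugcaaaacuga
miR-92a-3p: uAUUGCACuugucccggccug
The let-7 members of 6720427I07Rik lie on the - strand of chromosome 13, from 48536078 to 48538260.
let-7d-5p: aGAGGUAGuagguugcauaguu
let-7f-5p: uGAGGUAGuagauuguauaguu
let-7a-5p: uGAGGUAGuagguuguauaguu
The last lines are the arms of Mir9-2 in C130071C03Rik and the 5p arms of Mir129-2 and Mir670 in Mir670hg.
miR-9-5p: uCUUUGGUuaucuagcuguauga
miR-9-3p: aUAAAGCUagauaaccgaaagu
miR-129-5p: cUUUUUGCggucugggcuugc
miR-670-5p: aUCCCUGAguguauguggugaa
Within Mir17hg, miR-17-5p and miR-20a-5p share the seed AAAGUGC and miR-19a-3p and miR-19b-3p share GUGCAAA. The seed of miR-18a-5p, AAGGUGC, is that of miR-17-5p with 1 base changed, and the 3 let-7 members share GAGGUAG.

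Mir17hg (ENSMUSG00000089726, chr14:115042879-115046727, + strand), the host of the miR-17-92 cluster known from proliferating cells, was 3.24-fold higher in iRGCs. It measured 42.4, 35.4 and 31.1 CPM in the iRGC libraries and 12.3, 12.2 and 9.13 CPM in the cRGC libraries, log2 fold change 1.70 (SE 0.20, adjusted p = 0.000334). The populations were well apart. Its 6 miRNA genes lie in an exon of the annotated transcript, and 15.2% of its exonic bases are shared with them.

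C130071C03Rik (ENSMUSG00000050334, chr13:83721381-83884194, + strand) hosts Mir9-2, a gene of miR-9, which is abundant in neural progenitors. Its levels were 206, 162 and 168 CPM in iRGCs and 134, 104 and 68.9 CPM in cRGCs, log2 fold change 0.80 (SE 0.22, adjusted p = 0.0184). Every iRGC library was above every cRGC library, and cRGC library 3 was the lowest. Mir9-3hg, the host of another miR-9 gene and a lincRNA under the count threshold, had a mean level of 4.23 ± 1.88 CPM (SD over 3 libraries) in iRGCs and 1.01 ± 0.596 CPM in cRGCs, log2 fold change 2.07 (SE 0.65, adjusted p = 0.0323).

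6720427I07Rik (ENSMUSG00000097375, chr13:48532905-48546500, - strand), across the let-7d, let-7f-1 and let-7a-1 genes, measured 8.46, 10.5 and 8.80 CPM in iRGCs and 4.73, 4.76 and 4.97 CPM in cRGCs, log2 fold change 0.94 (SE 0.27, adjusted p = 0.0237). The 3 cRGC libraries were nearly alike and all below the iRGC libraries. The let-7 family is known for rising as cells differentiate. Mir670hg (ENSMUSG00000075020, chr2:94160636-94264918, - strand), across Mir129-2 and Mir670, measured 9.68, 8.31 and 10.6 CPM in iRGCs and 0.961, 4.18 and 3.19 CPM in cRGCs, log2 fold change 1.77 (SE 0.50, adjusted p = 0.0206). Here the iRGC libraries were all higher and cRGC library 1 was the lowest.

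LincRNAs at the 3 genes of miR-124, a miRNA abundant in neurons, were higher in cRGCs by the test. Mir124-2hg (ENSMUSG00000100252, chr3:17789921-17808970, + strand) measured 181, 276 and 201 CPM in iRGCs and 327, 285 and 338 CPM in cRGCs, log2 fold change -0.53 (SE 0.16, adjusted p = 0.0291). The populations did not overlap, although iRGC library 2 came close to cRGC library 2, and with library totals it no longer passed (log2 fold change -0.32, adjusted p = 0.14). Mir124a-1hg (ENSMUSG00000097545, chr14:64587331-64593961, + strand) measured 139, 187 and 115 CPM in iRGCs and 207, 170.2 and 279.7 CPM in cRGCs, log2 fold change -0.57 (SE 0.22, adjusted p = 0.0657). Its populations overlapped, and it no longer passed without cRGC library 3 (log2 fold change -0.35, adjusted p = 0.269) or without iRGC library 1, iRGC library 3 or cRGC library 1, nor with library totals. Gm27032 (ENSMUSG00000098051, chr2:180894105-180895220, + strand), which begins at the 3′ end of the Mir124a-3 gene and does not hold it whole, measured 2.89, 2.78 and 1.17 CPM in iRGCs and 8.27, 5.35 and 11.0 CPM in cRGCs, log2 fold change -1.85 (SE 0.47, adjusted p = 0.013). Its levels were highest in cRGC library 3, as those of both other miR-124 lincRNAs were, and lowest in iRGC library 3, as those of Mir124a-1hg were.

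The other hosts that were higher in cRGCs were 5330434G04Rik, across Mir325 (log2 fold change -1.14, adjusted p = 0.00407), and C230004F18Rik, called Cdr1os by RefSeq, across the miRNA gene Gm24396 (log2 fold change -1.16, adjusted p = 0.0761). The latter is one of those that reached 600 counts only through cRGCs. Cdr1os belongs to the locus of a circular RNA that binds miR-7, and 6.47% of its exonic bases are shared with the annotated gene Cdr1. It no longer passed when iRGC library 1 or 3 or cRGC library 2 or 3 was left out, with library totals or without a filter on low counts, with adjusted p up to 0.237. Of a wider list of 13 miRNA host genes, 10 were tested, of which 4 were higher in iRGCs and 3 in cRGCs, or 70.0% in either direction beside the 46.4% of all tested genes and 56.9% of those with at least 600 counts. Among those outside the lincRNA class, Dleu2, the host of miR-15a and miR-16-1, was higher in iRGCs (log2 fold change 1.99, SE 0.33, adjusted p = 0.00164) and Mir100hg, the host of miR-100, let-7a-2 and miR-125b-1, was higher in cRGCs (log2 fold change -1.94, SE 0.19, adjusted p = 0.000211). Counts on a host transcript do not measure its mature miRNA, which libraries of polyadenylated RNA leave out.

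**Figure D2:**
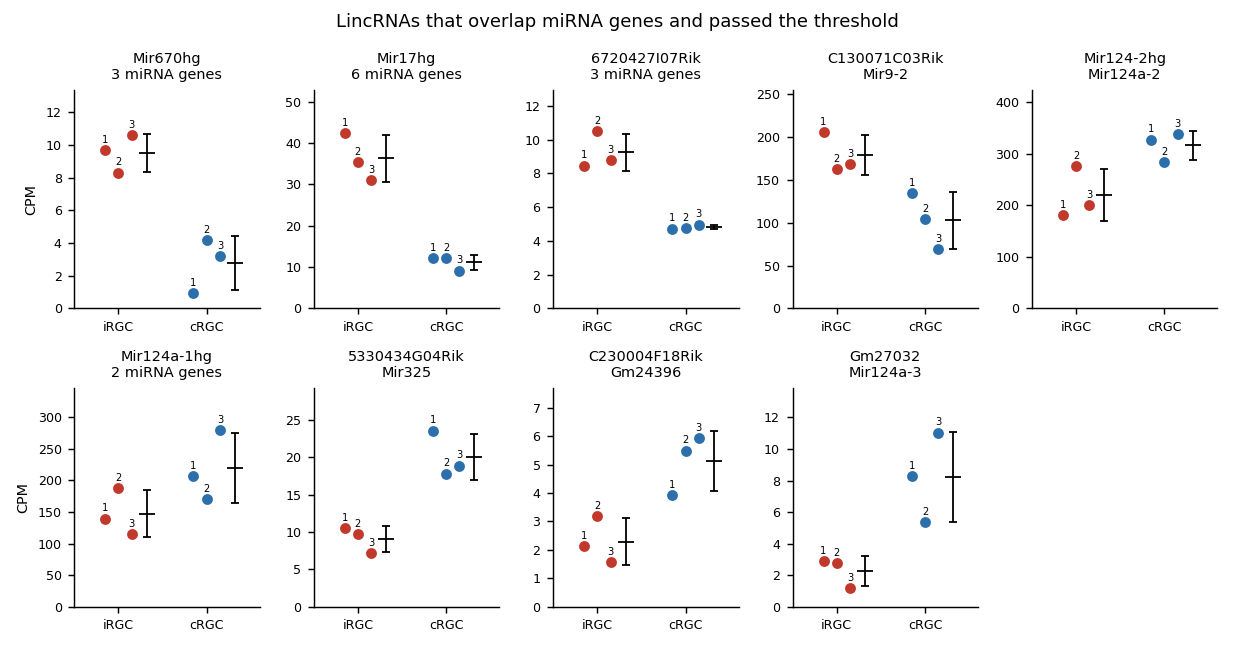
CPM of the 9 lincRNAs that overlap miRNA genes and passed the threshold, with 1 point per library (numbered 1 to 3) and the mean ± SD of the 3 libraries in black; each y axis starts at 0. In Mir17hg, Mir670hg, 6720427I07Rik and C130071C03Rik all iRGC libraries are higher, whereas in the other 5 hosts the cRGC means are higher, with overlap in Mir124a-1hg.

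A few abundant RNAs took most of the reads. The 99 lincRNAs held 1970979 counts in all, of which Malat1, Gm42418 and Miat took 72.8%, and the 10 with the most counts took 90.7%. Levels of different lincRNAs are compared as CPM per kb of exon. On this scale the 8 highest, averaged over the libraries, were Gm42418 (1347), Malat1 (462), Miat (249), D930028M14Rik (59.4), Xist (47.9), Mir124-2hg (44.6), 1700020I14Rik (39.0) and Mir124a-1hg (38.1). Gm42418 (ENSMUSG00000098178, chr17:39846958-39848788, + strand) lies at a ribosomal RNA locus of chromosome 17 and shares 99.5% of its exonic bases with the annotated genes AY036118 and CT010467.1, the second a ribosomal RNA, so its reads can come from ribosomal RNA.

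Malat1 (ENSMUSG00000092341, chr19:5795690-5802672, - strand), the speckle RNA, measured 2387, 3289 and 1438 CPM in iRGCs and 4877, 2790.0 and 4567 CPM in cRGCs. It was higher in cRGCs by the test, log2 fold change -0.78 (SE 0.30, adjusted p = 0.0665), although iRGC library 2 lay above cRGC library 2. The call was lost with library totals (log2 fold change -0.56, adjusted p = 0.169), with DESeq2 (adjusted p = 0.108) and without iRGC library 1 or 3 or cRGC library 1 or 3, with an adjusted p of 0.208 without cRGC library 1. Miat (ENSMUSG00000097767, chr5:112213228-112229395, - strand), a nuclear RNA of neurons and retinal precursors also called Gomafu, measured 2159, 2344 and 1403 CPM in iRGCs and 2884, 2232 and 2842 CPM in cRGCs, log2 fold change -0.43 (SE 0.19, adjusted p = 0.11). It did not pass, and its populations overlapped; it passed as higher in cRGCs without iRGC library 2 (log2 fold change -0.58, adjusted p = 0.0756), with DESeq2 (adjusted p = 0.0642) and with limma voom (adjusted p = 0.0631). Malat1, Miat and Gm42418 all had their lowest level in iRGC library 3, the library in which reads outside annotated genes made up 12.3% of the uniquely aligned reads, against 18.4% to 23.2% in the others; the part of this difference in their levels was not tested.

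Neat1 (ENSMUSG00000092274, chr19:5824708-5845478, - strand), the RNA core of paraspeckles, measured 4.76, 26.4 and 3.18 CPM in iRGCs and 2.38, 3.42 and 7.52 CPM in cRGCs, log2 fold change 1.36 (SE 0.78, adjusted p = 0.206). Its mean in iRGCs came mostly from library 2, where the endothelial, mural and erythroid markers were also highest, and without that library its log2 fold change was -0.16 (adjusted p = 0.865). Without iRGC library 3 it passed as higher in iRGCs (log2 fold change 1.80, adjusted p = 0.0765). Mural markers summed to 132, 274 and 107 CPM in the iRGC libraries, 3 of 4 tested being higher there and Notch3 the most abundant, and in cRGCs to 20.8, 31.2 and 22.4 CPM, with 4, 2 and 3 of 7 at 0. Of 5 tested erythroid markers 4 were higher in iRGCs, which summed to 12.2, 94.7 and 15.7 CPM, mostly Hbb-bs, against 0, 5.49 and 0.258 CPM in cRGCs, where 7, 2 and 5 of 7 had no read. Of the paraspeckle and speckle proteins reported here, Sfpq, Nono, Rbm14, Tardbp and Hnrnpk were higher in iRGCs, their log2 fold changes lying between 0.24 (Hnrnpk) and 0.50 (Tardbp), Matr3 was higher in cRGCs (-0.22), and Pspc1 did not pass.

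**Figure D3:**
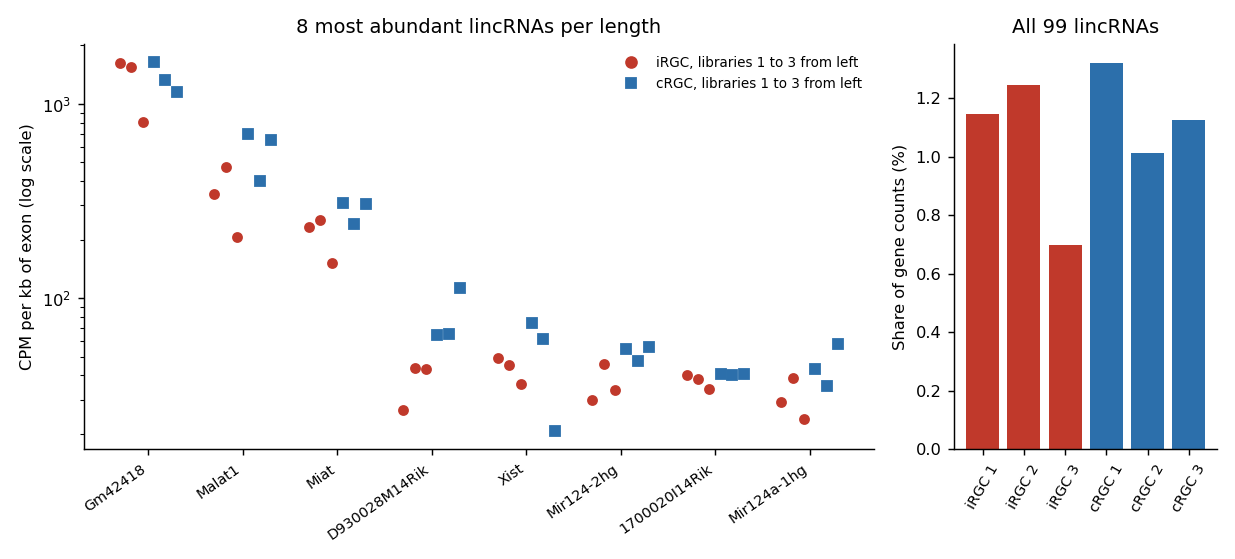
Left, CPM per kb of exon on a log axis for the 8 lincRNAs with the highest mean on that scale, with iRGC libraries as circles and cRGC libraries as squares; right, the share of all gene counts that fell on the 99 lincRNAs in each library, from 0. Gm42418, Malat1 and Miat are low in iRGC library 3, whose share of 0.699% is the lowest, and Xist is low in cRGC library 3.

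The 99 lincRNAs took 1.15%, 1.25% and 0.699% of the gene counts in the iRGC libraries and 1.32%, 1.01% and 1.13% in the cRGC libraries. These shares overlapped; no test is given, since the smallest p that exact permutation of 6 libraries allows is 0.1. Without Malat1 the means were 0.775% in both populations. Without Gm42418 and Gm26917 the means were 0.763% in iRGCs and 0.915% in cRGCs, and the libraries again overlapped. Without Malat1, Gm42418 and Miat they were 0.301% and 0.295%. Within a population the median coefficient of variation of the lincRNAs was 25.3% in iRGCs and 20.3% in cRGCs. Over all tested genes it was 19.3% and 14.1%. The genes were not matched to the lincRNAs for counts, and the part of count level in this difference was not tested.

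X-chromosome RNAs formed another group. Xist (ENSMUSG00000086503, chrX:103460366-103483254, - strand) is made from the inactive X chromosome of female cells; how many embryos of each sex a library held was not given. It measured 877, 812 and 651 CPM in iRGCs and 1339, 1106 and 372 CPM in cRGCs, log2 fold change -0.27 (SE 0.38, adjusted p = 0.625). The populations overlapped, with cRGC library 3 lowest of all and cRGC library 1 highest, and without cRGC library 3 Xist passed as higher in cRGCs (log2 fold change -0.63, adjusted p = 0.0221). The summed level of 4 Y-linked genes, which only male cells make, was 174, 219 and 172 CPM in iRGCs and 83.4, 120.1 and 206 CPM in cRGCs. It was highest in cRGC library 3 among the cRGC libraries and lowest in cRGC library 1, the reverse of Xist there. The iRGC libraries did not show this, since library 3 was the lowest for both. Of the 4, Ddx3y was higher in iRGCs (log2 fold change 1.00, adjusted p = 0.0133), and Uty, Kdm5d and Eif2s3y did not pass.

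Ftx and Jpx, noncoding genes beside Xist that promote its expression, did not pass either. Ftx measured 16.3, 17.8 and 15.2 CPM in iRGCs and 14.3, 10.1 and 11.9 CPM in cRGCs, log2 fold change 0.44 (SE 0.21, adjusted p = 0.136). Jpx measured 6.59, 7.79 and 4.19 CPM in iRGCs and 8.53, 5.90 and 4.16 CPM in cRGCs (adjusted p = 0.999). Jpx was lowest in cRGC library 3, as Xist was, with 4.16 CPM, close to the 4.19 CPM of iRGC library 3. Among cofactors of X inactivation, Hnrnpu, Hnrnpk, Lbr, Rbm15, Smchd1 and Pcgf5 were higher in iRGCs and Pcgf3 in cRGCs, with 7 of 14 tested genes of the list not past the threshold, beside 46.4% of all tested genes that passed. Lbr, a protein of the nuclear envelope that binds Xist, had a log2 fold change of 1.97 (adjusted p = 0.000207). The single Y-linked lincRNA, Gm29650, measured 8.04, 6.55 and 3.44 CPM in iRGCs and 3.65, 5.11 and 5.36 CPM in cRGCs (log2 fold change 0.35, adjusted p = 0.541).

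Hosts of small nucleolar RNAs (snoRNAs), the guides for modification of ribosomal RNA, were found among the lincRNAs as well. Snhg6 measured 13.5 ± 4.505 CPM in iRGCs and 11.3 ± 0.924 CPM in cRGCs, Snhg12 13.8 ± 4.39 CPM and 13.6 ± 3.82 CPM, and Snhg20 13.3 ± 0.618 CPM and 11.5 ± 2.88 CPM. None of the 3 passed, with adjusted p of 0.535, 0.955 and 0.54. Of the lincRNAs that hold an annotated snoRNA on the same strand without the name of a host gene, Epb41l4aos, across Gm23639, was a DEG higher in iRGCs (log2 fold change 1.08, adjusted p = 0.0621), and 2700038G22Rik, across Snord93, did not pass (log2 fold change 1.00, adjusted p = 0.128). Both reached 600 counts only through iRGCs. 2700038G22Rik passed as higher in iRGCs under 4 of 14 alternatives, at adjusted p down to 0.0674. These were library totals, DESeq2, at least 10 counts in every library and the fit without iRGC library 3. Over the whole list of snoRNA hosts, whatever their biotype, 15 were tested, of which 4 were higher in iRGCs (Snhg1, Snhg15, Snhg17 and Gas5) and 2 in cRGCs, or 40.0% in either direction beside 46.4% of all tested genes. Those 2 were Snhg11, a brain-enriched gene (log2 fold change -2.51, adjusted p = 0.000205), and Snhg14, the long transcript of the imprinted Ube3a region (log2 fold change -1.33, adjusted p = 0.000258).

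Among lincRNAs known from neurons, 1700020I14Rik, which RefSeq calls Oip5os1 and which is also known as Cyrano, an RNA that triggers decay of miR-7, measured 334, 317 and 284 CPM in iRGCs and 337, 333 and 339 CPM in cRGCs. The 3 cRGC libraries were alike to within a few CPM, the populations overlapped, and it did not pass (log2 fold change -0.11, SE 0.100, adjusted p = 0.43). 2900097C17Rik, the mouse Norad, which binds Pumilio proteins, measured 7.98, 8.44 and 10.3 CPM in iRGCs and 14.0, 16.0 and 13.2 CPM in cRGCs, log2 fold change -0.69 (SE 0.22, adjusted p = 0.0351). All cRGC libraries were higher, but the call was lost without cRGC library 2 (adjusted p = 0.149) and with library totals (adjusted p = 0.106). Of a list of 19 neural and retinal long noncoding RNAs in the tables, 14 were tested, of which 3 were higher in iRGCs and 5 in cRGCs, or 57.1% in either direction beside 46.4% of all tested genes. Six3os1, transcribed beside the eye-field gene Six3, was higher in iRGCs (log2 fold change 0.64, SE 0.12, adjusted p = 0.00231), and Vax2os, beside the ventral retinal gene Vax2, was higher in cRGCs (log2 fold change -0.96, SE 0.24, adjusted p = 0.0112).

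The lincRNAs with the largest differences are mostly without a described function. Among the DEGs without overlap between the populations, the 8 with the largest fold change in each direction were taken. Of these, 4 of those higher in iRGCs (AU020206, Gm14230, 2900052N01Rik and Mir670hg) and 7 of those higher in cRGCs (all but A930024N18Rik) reached 600 counts only through their higher population. The rank and the test of those lincRNAs are not independent of how they were chosen. AU020206 (ENSMUSG00000097415, chr7:75769038-75782099, - strand) had the largest fold change on the iRGC side, with 20.01, 25.4 and 13.1 CPM in iRGCs and 2.04, 3.14 and 3.68 CPM in cRGCs, log2 fold change 2.72 (SE 0.34, adjusted p = 0.000443). Gm14230 (ENSMUSG00000087179, chr2:156833049-156839892, - strand) measured 6.82, 6.95 and 8.20 CPM in iRGCs and 0.384, 1.79 and 1.74 CPM in cRGCs, log2 fold change 2.48 (SE 0.58, adjusted p = 0.00863). In both, the populations stood far apart. For 2900052N01Rik (ENSMUSG00000099696, chr9:46913493-46927366, + strand) the levels were 7.24, 4.23 and 5.08 CPM in iRGCs and 0.346, 1.90 and 0.742 CPM in cRGCs, log2 fold change 2.46 (SE 0.67, adjusted p = 0.0176). Lockd (ENSMUSG00000098318, chr6:134929092-134956798, + strand), a transcript downstream of the cell cycle inhibitor gene Cdkn1b, measured 23.8, 29.6 and 18.1 CPM in iRGCs and 3.88, 8.21 and 4.26 CPM in cRGCs, log2 fold change 2.13 (SE 0.34, adjusted p = 0.00123). Its cRGC library 2 was the highest of the cRGC libraries, as that of 2900052N01Rik was.

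Gm26709 measured 12.8, 15.4 and 9.08 CPM in iRGCs and 2.23, 4.80 and 5.58 CPM in cRGCs, log2 fold change 1.56 (SE 0.39, adjusted p = 0.0116). The levels of 4933404O12Rik were 14.1, 15.3 and 16.7 CPM in iRGCs and 4.77, 7.87 and 4.58 CPM in cRGCs, log2 fold change 1.42 (SE 0.28, adjusted p = 0.00372). Both were higher in every iRGC library. The remaining DEGs of this direction were AI504432 (log2 fold change 1.25, adjusted p = 0.00137), Mir17hg and Mir670hg described above, and Epb41l4aos (log2 fold change 1.08, adjusted p = 0.0621), which no longer passed without iRGC library 1 or 3 or cRGC library 1 or 3 or without a filter on low counts, with adjusted p up to 0.186. Of the 10 DEGs higher in iRGCs, 7 were lowest in cRGC library 1, which also had the lowest progenitor sum, and the same held for 68.6% of all DEGs higher in iRGCs.

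On the cRGC side, Gm32736 (ENSMUSG00000106483, chr5:106095091-106103547, + strand) had the largest fold change, with 1.99, 2.04 and 1.83 CPM in iRGCs and 9.61, 10.7 and 7.91 CPM in cRGCs, log2 fold change -2.26 (SE 0.33, adjusted p = 0.000797). The iRGC libraries were nearly equal and the mean of the cRGC libraries 4.80-fold higher by the fit. Gm14827 (ENSMUSG00000084904, chrX:94442732-94447727, + strand) measured 1.06, 1.36 and 2.27 CPM in iRGCs and 4.69, 5.14 and 6.94 CPM in cRGCs, log2 fold change -1.84 (SE 0.48, adjusted p = 0.0149). Gm38101 (ENSMUSG00000104157, chr1:176276213-176279769, + strand) measured 1.45, 1.24 and 1.99 CPM in iRGCs and 5.15, 6.32 and 5.07 CPM in cRGCs, log2 fold change -1.82 (SE 0.44, adjusted p = 0.0103). Within each of these 2 the populations were separate, and for both iRGC library 3 was the highest of the iRGC libraries, as it was for the summed RGC markers. Over the 22 DEGs higher in cRGCs, library 3 was the highest iRGC library for 7 (31.8%), beside 76.2% of all DEGs higher in cRGCs. Gm2694 (ENSMUSG00000097248, chr8:87460469-87525554, + strand) measured 3.18, 3.28 and 2.96 CPM in iRGCs and 9.61, 6.83 and 13.5 CPM in cRGCs, log2 fold change -1.66 (SE 0.34, adjusted p = 0.0047), with cRGC library 3 highest.

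Some of the largest differences lie in lincRNAs that share exonic bases with other genes, whose counts are uncertain because the sources used here do not say whether counting used the strand. A930024N18Rik shares 21.9% of its exonic bases with Dll1 on the opposite strand; it measured 2.80, 4.27 and 4.16 CPM in iRGCs and 13.5, 13.4 and 10.8 CPM in cRGCs, log2 fold change -1.75 (SE 0.29, adjusted p = 0.00154). Gm17484 shares 49.9% with Bag4 and Ddhd2 and measured 3.54, 2.72 and 2.68 CPM in iRGCs and 8.23, 11.5 and 8.16 CPM in cRGCs, log2 fold change -1.64 (SE 0.33, adjusted p = 0.00393). For 2410018L13Rik, with 35.6% shared, the levels were 0.643, 2.63 and 5.05 CPM in iRGCs and 8.00, 8.32 and 11.0 CPM in cRGCs, log2 fold change -1.71 (SE 0.62, adjusted p = 0.0559). All 3 were higher in every cRGC library, but the last was not past the threshold without iRGC library 2 (adjusted p = 0.135) or cRGC library 3 (adjusted p = 0.152). Of the 99 lincRNAs, 21 share at least 10% of their exonic bases with another gene and 57 share none. The 21 include AI480526 (66.6%), Miat (30.4%) and C130071C03Rik (24.7%), which are described in other paragraphs and whose counts carry the same uncertainty. Among the 78 under 10%, 11 (14.1%) were higher in iRGCs and 24 (30.8%) in cRGCs, beside 23.3% and 23.1% of all tested genes. The 78 include lincRNAs that reached the count sum only through their higher population, such as AU020206 through iRGCs and Gm32736 and Gm2694 through cRGCs. Both shares are thus partly set by the choice of members, and the shares without such lincRNAs are not given.

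**Figure D4:**
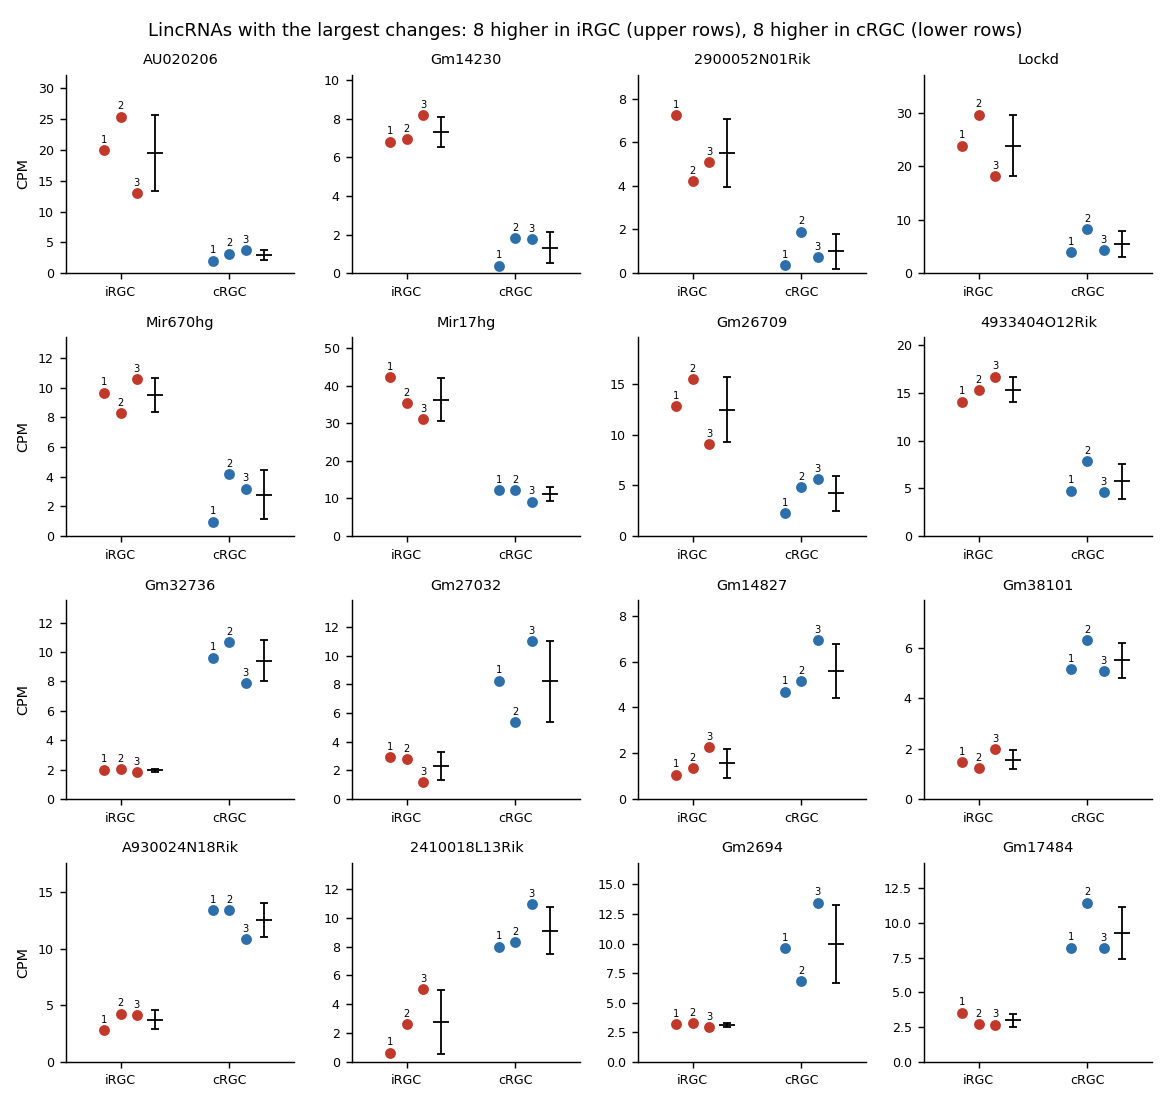
CPM in each library (points numbered 1 to 3) and mean ± SD (black, n = 3) of the 8 lincRNAs with the largest fold change in each direction among the DEGs without overlap, in order of fold change; each y axis starts at 0. All iRGC points lie above the cRGC points in the upper 2 rows and below them in the lower 2 rows.

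Dubr (ENSMUSG00000022639, chr16:50719294-50732773, - strand), a lincRNA described in muscle differentiation, had the smallest adjusted p of the 99. It measured 25.1, 22.7 and 31.1 CPM in iRGCs and 76.5, 68.6 and 75.03 CPM in cRGCs, log2 fold change -1.48 (SE 0.15, adjusted p = 0.000228), and each population was tight. D930028M14Rik (ENSMUSG00000074274, chr7:25152457-25156627, + strand), the fourth most abundant per kb averaged over the libraries, measured 28.4, 47.0 and 46.2 CPM in iRGCs and 69.1, 69.7 and 121 CPM in cRGCs, log2 fold change -1.10 (SE 0.27, adjusted p = 0.0102), with cRGC library 3 highest. Per kb it stood at 37.8 CPM in iRGCs, below Xist at 43.5, and at 80.9 CPM in cRGCs, above Xist at 52.3. Paupar (ENSMUSG00000102424, chr2:105657862-105661343, - strand), a chromatin-associated RNA transcribed upstream of Pax6, measured 10.9, 9.92 and 7.82 CPM in iRGCs and 14.3, 17.6 and 26.1 CPM in cRGCs, log2 fold change -1.02 (SE 0.27, adjusted p = 0.0155), again with cRGC library 3 highest. Dubr and Paupar fall outside the rule by which genes were named and were chosen after their values were seen. The same holds for the miRNA hosts C130071C03Rik, 6720427I07Rik, 5330434G04Rik and C230004F18Rik, for 2700038G22Rik and BC046251, and for the other lincRNAs past the threshold that are named here for completeness or for their neighbours.

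The remaining DEGs higher in cRGCs that are not described elsewhere were Gm30382, Gm2762, D130017N08Rik, D230017M19Rik and 3222401L13Rik, at log2 fold changes of -1.28 (Gm30382) to -1.03 (3222401L13Rik). The first, the second and the last of these were lost under 4, 7 and 8 of 14 alternatives. Each was lost without a filter on low counts and when single libraries were left out, among them cRGC library 2. The second and the last were also lost with library totals. Under a 2-fold change, 5430416N02Rik, Tmem250-ps and BC002059 were higher in iRGCs and AI480526, Gm45495 and 4732496C06Rik in cRGCs. BC002059 fell from a log2 fold change of 0.86 to 0.43 (adjusted p = 0.244) without iRGC library 1, and was also lost without cRGC library 1 or 2. Gm45495 and 4732496C06Rik were each lost under 8 of 14 alternatives, among them library totals, no filter on low counts and all but 1 of the 6 fits that leave out a library, at adjusted p up to 0.203 and 0.234. AI480526 was lost under 4, with library totals and without iRGC library 1, cRGC library 1 or cRGC library 3. Of the 55 lincRNAs that did not pass, 25 had a log2 fold change within 0.25 of 0, and 2 had one over 1, Neat1 and BC046251 (log2 fold change 1.44, SE 0.64, adjusted p = 0.107). The second passed under 6 of 14 alternatives, among them DESeq2, limma voom, library totals and the fits without iRGC library 1 or cRGC library 1, at adjusted p down to 0.0503. Of the 99, 60 had under 2000 counts in all.

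Neighbouring genes were compared next. For each lincRNA the protein-coding gene with the nearest start site was taken, and 80 of these 99 neighbours were tested. Of 37 lincRNAs past the threshold with a tested neighbour, 15 (40.5%) had a neighbour that passed in the same direction, 4 (10.8%) had one that passed in the opposite direction and 18 had one that did not pass. When each tested protein-coding gene past the threshold was given its own nearest protein-coding gene, the shares were 27.3% and 22.5% of 5544. Gene bodies overlap in 12 of the 99 pairs, where reads of a neighbour can have been counted on the lincRNA if counting ignored the strand; in the pairs without overlap, 12 of 33 (36.4%) had a neighbour that passed in the same direction. Without the lincRNAs that reached 600 counts only through their higher population, it was 10 of 24 (41.7%). With start sites within 50 kb, 14 of 28 lincRNAs past the threshold had a neighbour that passed in the same direction, against 27.5% of protein-coding genes. Over the 80 pairs the log2 fold changes had a Spearman correlation of 0.388, given as a description since both genes of a pair come from the same libraries.

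In 20 lincRNAs the start site lies within 5 kb of the neighbour's and the genes run apart. Of the 7 such lincRNAs that passed, 5 had a neighbour that passed in the same direction and 1 in the opposite direction. The remaining 1, AI480526 beside Setd1b, had a neighbour that did not pass. Among protein-coding genes that start within 5 kb of each other, 29.4% had a neighbour that passed in the same direction. Those pairs were taken in any orientation, so they are not a like comparison for genes that run apart. Of the 5, Gm14230, 2210008F06Rik and Gm38101 reached 600 counts only through their higher population, and without such lincRNAs the count was 2 of 4. Gm14230 starts 115 bp from Tgif2, a homeobox repressor of TGF-β signalling, which measured 44.3 ± 3.30 CPM in iRGCs and 8.46 ± 5.72 CPM in cRGCs, log2 fold change 2.39 (SE 0.43, adjusted p = 0.00219). The other 4 pairs were higher in cRGCs: 2210008F06Rik with Ankrd13b (176 bp), Gm16701 with Fam78b (576 bp), A430046D13Rik with the myosin light chain gene Myl6b (679 bp) and Gm38101 with Pld5 (901 bp). Pld5 measured only 0.897 ± 0.842 CPM in iRGCs and 5.24 ± 0.284 CPM in cRGCs. It passed narrowly (log2 fold change -2.54, SE 1.08, adjusted p = 0.0955). The calls of neighbours were not followed under the alternatives. Fam78b had the log2 fold change -1.75 beside -1.29 for Gm16701, and Ankrd13b, which encodes a ubiquitin-binding protein of endosomes, had -1.19 beside -1.53 for 2210008F06Rik. Without cRGC library 2, neither 2210008F06Rik (adjusted p = 0.163) nor A430046D13Rik (adjusted p = 0.125) passed, and A430046D13Rik did not pass without cRGC library 3 either (adjusted p = 0.141).

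A pair of these start regions is printed from the RefSeq promoter table (GRCm38.p6), as the 250 bases before the start of the protein-coding gene on its strand, since each holds the start site of a lincRNA that moved with that gene. Capitals mark GGGCGG, the letters of the GC box that Sp1 binds, on either strand. The first lies at Tgif2, chr2:156839757-156840006 (+), with the start of Gm14230 at position 136, and holds 22 CpG.
Tgif2 and Gm14230: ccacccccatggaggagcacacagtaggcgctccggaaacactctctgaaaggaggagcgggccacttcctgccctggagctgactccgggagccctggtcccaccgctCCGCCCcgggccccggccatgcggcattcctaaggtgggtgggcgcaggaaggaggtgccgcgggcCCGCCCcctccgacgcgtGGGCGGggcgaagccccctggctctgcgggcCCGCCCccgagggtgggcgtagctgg
The second lies at Ankrd13b, chr11:77489679-77489928 (-), with the start of 2210008F06Rik at position 75, and holds 44 CpG.
Ankrd13b and 2210008F06Rik: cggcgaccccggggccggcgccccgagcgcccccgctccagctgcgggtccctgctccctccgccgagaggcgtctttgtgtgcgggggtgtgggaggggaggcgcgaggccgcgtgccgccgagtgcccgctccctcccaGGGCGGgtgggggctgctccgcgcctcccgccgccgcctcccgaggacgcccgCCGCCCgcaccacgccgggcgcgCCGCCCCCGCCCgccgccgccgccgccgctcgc
The Tgif2 region holds 4 matches to GGGCGG and the Ankrd13b region 4, none of which overlap, and neither holds CCAAT or TATAAA on either strand. At least 1 match to GGGCGG is present in 32.7% of all 32817 promoters of the table cut to the same length, to CCAAT in 33.8% and to TATAAA in 12.4%. For 56 of the 99 lincRNAs the table has 65 promoters, of which 40.0% hold GGGCGG, 33.8% CCAAT and 7.69% TATAAA. The median promoter had 8 CpG for the lincRNAs and 6 for the whole table.

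Other neighbours moved the opposite way. Gm5113 starts 125 bp from Zfp146, a zinc finger gene, and was higher in cRGCs (log2 fold change -1.14, adjusted p = 0.00479) whereas Zfp146 was higher in iRGCs (log2 fold change 0.69, SE 0.11, adjusted p = 0.00103). A930024N18Rik was higher in cRGCs and Dll1, the Notch ligand of neurogenic precursors, in iRGCs (log2 fold change 1.55, SE 0.17, adjusted p = 0.000248). AU020206 with Klhl25 and Epb41l4aos with Epb41l4a were the remaining opposite pairs, at 66211 and 212074 bp.

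Among neighbours farther away, Cdkn1b, 8691 bp from the start of Lockd, was higher in iRGCs too (log2 fold change 0.74, SE 0.11, adjusted p = 0.00101), by less than Lockd. Cbln1, a secreted synapse organizer that Gm2694 overlaps in part, was higher in cRGCs as Gm2694 was (log2 fold change -1.29, SE 0.40, adjusted p = 0.0292). Pou2f2, an octamer-binding transcription factor whose gene body overlaps D930028M14Rik, was also higher in cRGCs (log2 fold change -1.35, SE 0.15, adjusted p = 0.000258). Pax6, 7557 bp from Paupar, did not pass (log2 fold change -0.11, SE 0.12, adjusted p = 0.528).

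**Figure D5:**
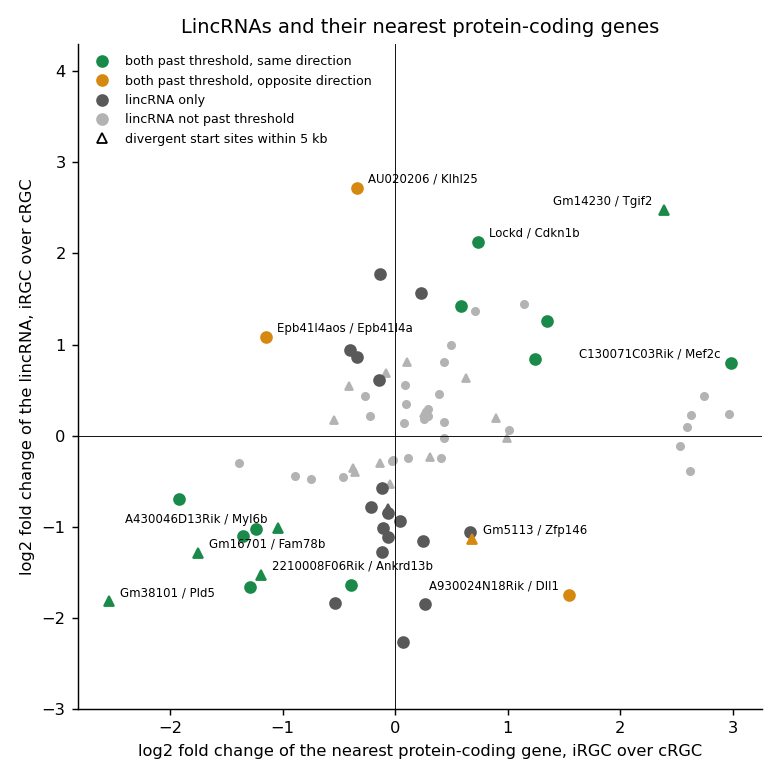
Log2 fold change of each of the 80 lincRNAs with a tested neighbour (y) against that of its nearest protein-coding gene (x), iRGCs over cRGCs; triangles are pairs that start within 5 kb and run apart. Green points (15) passed in the same direction in both genes, orange points (4) in opposite directions, and dark grey points (18) are lincRNAs whose neighbour did not pass.

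At the count threshold, the 3 lincRNAs just inside were C920006O11Rik (601 counts), Gm44837 (610) and 2900052N01Rik (610), and the 3 just outside were Dbpht2 (594), Gm16702 (593) and Gm14168 (580). C920006O11Rik measured 3.56 ± 0.593 CPM in iRGCs and 3.02 ± 0.701 CPM in cRGCs, and Gm44837 3.63 ± 1.97 CPM and 3.12 ± 1.101 CPM. Just outside, Gm16702 was a DEG higher in cRGCs (log2 fold change -2.16, SE 0.83, adjusted p = 0.0689). Dbpht2 (adjusted p = 0.557) and Gm14168 (adjusted p = 0.114) did not pass. Over all 350 tested lincRNAs, 26 (7.43%) were higher in iRGCs and 47 (13.4%) in cRGCs, 20.9% in either direction, beside 46.4% of all tested genes.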

How the data were processed

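Retinas at E16.5 were dissociated, GFP-positive cells were sorted, and polyadenylated RNA was sequenced in 50-base reads. Per the labels and methods, the authors aligned reads to mm10 with HISAT2 2.1.0 and counted them on Ensembl GRCm38 genes with HTSeq 0.11.1; the deposited counts are whole numbers per gene, not normalized, in 1 table per library. Whether counting used the strand is not given in the sources used here. HTSeq's tallies that name no gene were left out of library sizes and tests; those overlapping no gene came to 12.3% to 23.2% of uniquely aligned reads. Of 47069 genes, 46574 matched GENCODE M21, which gave biotypes, symbols and positions. The 13 ATAC-seq samples were not analysed here.

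The test was the quasi-likelihood F test of edgeR 4.0.16 (R 4.3.3) with filterByExpr, TMM and Benjamini-Hochberg adjustment over 15941 genes, without a block. Scaling by TMM gave factors from 1.03 to 1.10 for iRGC libraries, from 0.921 to 0.952 for cRGC libraries, and the biological coefficient of variation was 36.3%. SEs are the absolute log2 fold change over the square root of F. The adjusted p of 0.1 follows the study's methods, which used DESeq2; a log2 fold change over 1 was also required here for DEGs. The fit was first tested on simulated counts.

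Named lincRNAs are the 8 highest per kb of exon, the 8 largest DEGs per direction without overlap, members of the function lists and the 3 nearest the count threshold on either side; other lincRNAs were named after their values were seen. In the paraspeckle list, 1 gene is not reported here. The lincRNAs and all lists were chosen with earlier results of these data known. Alternatives were other scaling factors or none, DESeq2 1.42.0, limma voom 3.58.1, other filters, each library left out, the replicate block and an adjusted p of 0.05. Figures were drawn with matplotlib 3.10.9. Intervals of counting error were not used, and depth limits what lincRNAs with a few counts per library can show.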

Additional observations from a re-analysis of the deposited data

How the results depend on the processing

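Of the 44 lincRNAs past the threshold, 27 passed under each of the 14 alternatives that give a fold change per gene, 2900052N01Rik passed under the 13 in which it was tested (with at least 10 counts in every library it was not), 16 were lost under at least 1, none of the 44 changed direction, and 17 of the 55 others passed under at least 1 alternative. With library totals and no factors, 23 lincRNAs were higher in iRGCs and 19 in cRGCs, with 17 and 12 DEGs, a setting that raises the median log2 fold change of all genes by 0.21. Leaving out each library in turn gave 14 to 19 lincRNAs higher in iRGCs and 20 to 27 in cRGCs, 10 to 13 and 14 to 21 DEGs, and a median log2 fold change of -0.16 to 0.0090. The lowest count of DEGs higher in cRGCs, 14, came without cRGC library 3. Libraries with the same replicate number did not deviate together from their population means (correlations of -0.055 to -0.012), and with the number as a block 13 lincRNAs were higher in iRGCs and 22 in cRGCs. The block ended the calls of Malat1, Mir124a-1hg, Epb41l4aos, BC002059, C230004F18Rik, Gm30382, Gm45495, 3222401L13Rik and 4732496C06Rik, the cause of which was not tested. At an adjusted p under 0.05, 13 and 21 passed. Leaving out Gm42418 and Gm26917, a choice made after seeing the data, changed no count of lincRNAs past the threshold or of DEGs. Of the lincRNAs past the threshold that would reach 600 counts at the level of their lower population, 10 of 24 (41.7%) had a neighbour that passed in the same direction, against 15 of 37 overall; this choice and that of pairs without overlap were made after seeing the data too.

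Directions turned in 7 of the lincRNAs named in the text, none of them past the threshold; the log2 fold changes are given for the alternatives at which they turned or, for single libraries left out, as the range over all 6. Jpx was at 0.0078 with DESeq2's size factors in edgeR, 0.037 with upper quartile factors, 0.21 with library totals, 0.0081 with DESeq2, 0.043 with limma voom, 0.015 with at least 10 counts in every library, 0.013 with the replicate block and -0.20 without cRGC library 3 to 0.30 without cRGC library 1. Gm42418 was at 0.17 with library totals and -0.22 without iRGC library 1 to 0.20 without iRGC library 3. 1700020I14Rik was at 0.099 with library totals. The range was -0.16 without iRGC library 2 to 1.99 without cRGC library 3 for Neat1, -0.63 without cRGC library 3 to 0.070 without cRGC library 1 for Xist, -0.28 without iRGC library 3 to 0.54 without iRGC library 1 for Gm44837 and -0.26 without iRGC library 3 to 0.24 without cRGC library 1 for Snhg12. The cause was not tested. With 3 libraries per population and a median SE of 0.34 on the log2 scale, depth and spread limit what can be said of lincRNAs with few counts.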

Other observations

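Several long noncoding RNAs of the neural and retinal list that are not among the 99 lincRNAs passed the threshold as well. Peg13, an imprinted brain transcript, averaged 158 CPM in iRGCs against 405 CPM in cRGCs (log2 fold change -1.35, SE 0.22, adjusted p = 0.00147). Tunar (log2 fold change -1.79, SE 0.66, adjusted p = 0.0598) and Crnde (log2 fold change -1.13, SE 0.32, adjusted p = 0.0195) were higher in cRGCs too. Sox2ot, across the progenitor gene Sox2, was higher in iRGCs (19.95 ± 7.95 CPM, SD over 3 libraries, against 8.69 ± 2.80 CPM, adjusted p = 0.0239), and so was Cerox1 (log2 fold change 2.25, SE 0.57, adjusted p = 0.0123). Pax6os1 had a log2 fold change of 2.61 and did not pass (adjusted p = 0.101).

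Which iRGC library was highest differed between the lincRNAs and other genes. Library 2 was the highest iRGC library for 43.4% of the lincRNAs and 29.1% of all tested genes, and library 3 for 22.2% and 41.0%, a pattern noticed in the data and not tested.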
